A study of Homo sapiens with 4 samples.

Results

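Genes of transforming growth factor beta (TGF-beta) signalling, of the mesenchymal state and of matrix breakdown were examined in SW1990, an established human line of pancreatic adenocarcinoma. The 35 genes were listed by symbol and mapped to Ensembl gene IDs, of which the count table holds 25798, and rows that share an ID were summed. Of these 35 genes, 34 had rows and 30 passed the filter on low counts. MMP10 has no row, so its expression is not analysed here and only its promoter sequence is shown. The comparison has 2 libraries of total RNA in each group. Erianin cells received 100 nM erianin for 48 h, and control cells received DMSO, the solvent, for 48 h. Erianin is a bibenzyl from Dendrobium orchids, known as a tubulin binder, and according to the title of the series it acts on AKT and ASK1. All cells carried the genotype label WT and grew in DMEM with serum and antibiotics, so the data describe 1 line at 1 dose and 1 time. Nothing in the labels says that replicates were separate cultures, so a p-value here reflects the spread of these libraries alone, which could be technical.

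TGF-beta ligands bind the type II receptor TGFBR2, which joins and activates the type I receptor TGFBR1. TGFBR1 phosphorylates SMAD2 and SMAD3, which bind SMAD4 and enter the nucleus, while SMAD7 blocks the receptor and SKI and SKIL repress the SMAD complex. In carcinoma cells this signal is known to promote the epithelial to mesenchymal transition (EMT), with the transcription factors ZEB1, ZEB2, SNAI1, SNAI2 and TWIST1, and to change the proteases and inhibitors that remodel matrix.

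The libraries held 63336545 and 59923935 estimated counts after erianin and 63254725 and 60798427 after DMSO. Levels of different genes are compared below in FPKM, the authors' values of fragments per transcript length and sequencing depth. Differences between groups are given in CPM, counts scaled to the adjusted library size. The epithelial label was checked with 5 markers. The keratins KRT8, KRT18 and KRT19 ranged from 893 to 3030 FPKM over the 4 libraries, whereas EPCAM had 3.5 and 1.94 FPKM in erianin and 2.93 and 1.48 FPKM in DMSO. E-cadherin (CDH1) had 3.25 and 2.75 FPKM in erianin and 3.58 and 3.46 FPKM in DMSO. N-cadherin (CDH2) therefore lay above E-cadherin in every library, by a ratio of FPKM of 3.13 and 2.51 in erianin and 3.35 and 3.38 in DMSO.

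The genes ran from among the most abundant transcripts of the line to none detected. Mean FPKM was at least 10 for 13 genes, from 1 to under 10 for 8 and under 1 for 13, and their median of 2.89 FPKM compares with 0.468 FPKM over the 25349 gene IDs above 0. VIM and TIMP1 ranked 118 and 120 among all gene IDs by mean FPKM. The next were TGFB1, TIMP3, TIMP2, PLAU, MMP14, TGFBI and PLAUR, at ranks from 623 to 2180. At the other end TGFBR2, ZEB2, TWIST1, MMP7, MMP9 and MMP13 were at 0.41 FPKM or less in every library.

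**Figure D1:**
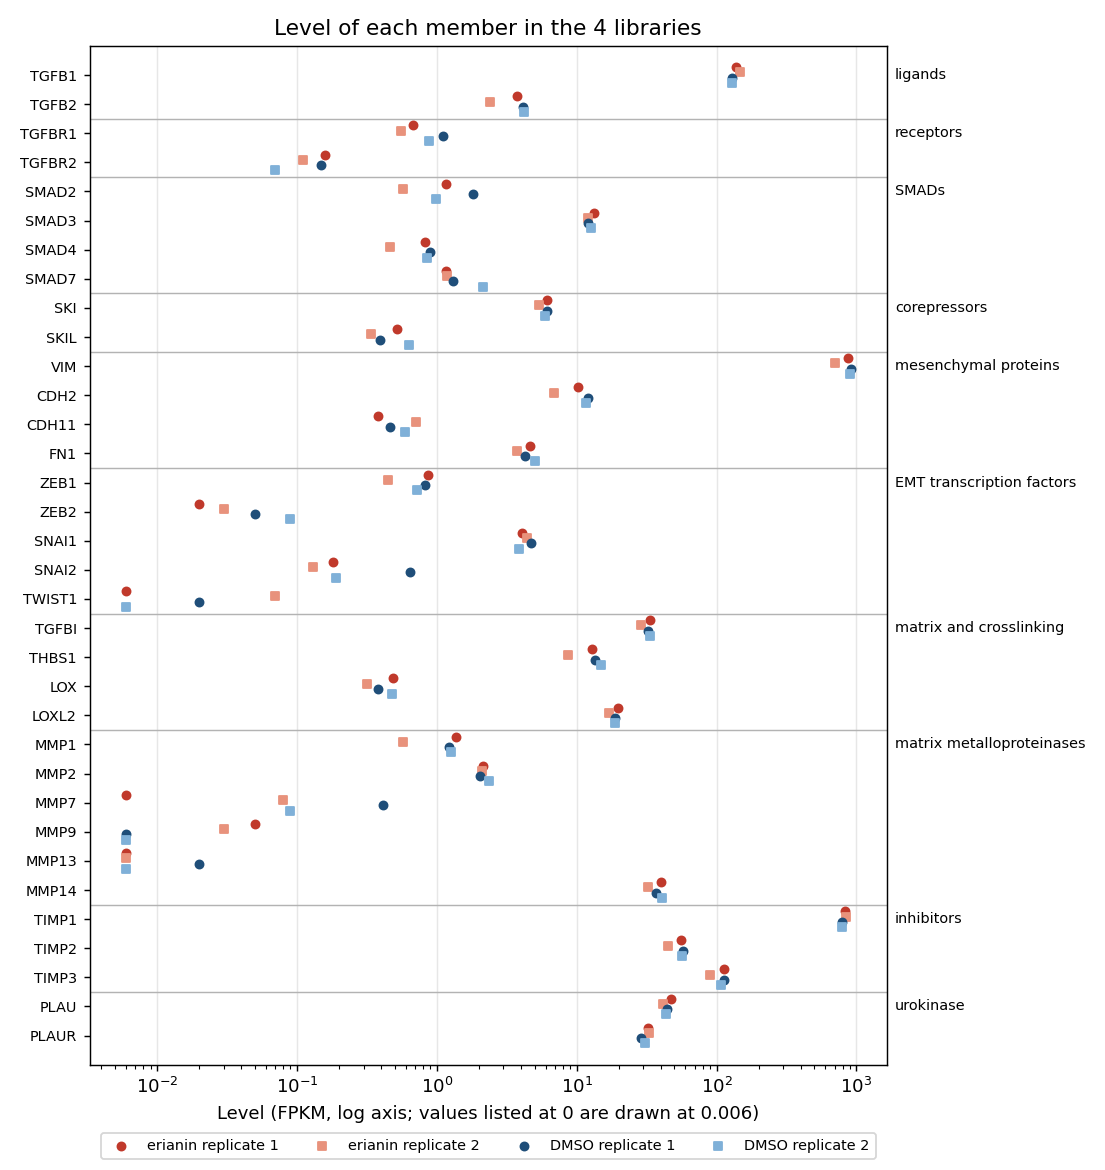
Level of the 34 genes with rows, in FPKM on a log axis, with 1 point per library (erianin red, DMSO blue) and genes grouped by role. VIM and TIMP1 stand near 1000 FPKM, and the points of erianin and DMSO lie close together for abundant genes and scatter for genes under 1 FPKM.

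None of the genes passed the test for a difference between erianin and DMSO. At an adjusted p under 0.05 (edgeR, quasi-likelihood, adjusted over all genes), 0 of 30 were higher and 0 were lower. Among all 17090 genes tested there were 7 that passed, or 0.041%, with 0.0117% higher and 0.0293% lower. DESeq2 and limma-voom also called 0 of the 30. At an unadjusted p under 0.05 there were 3 of 30, with TGFB1 higher and TGFBR1 and CDH2 lower, against 8.1% of all genes tested (2.21% higher and 5.89% lower). DESeq2 and limma-voom each gave 4 at that level, against 8.84% and 9.79% of all genes. They were TGFB1, CDH2, THBS1 and PLAUR with DESeq2, and TGFB1, TGFBR1, CDH2 and THBS1 with limma-voom. Upper-quartile factors gave TGFBR1 and CDH2 alone, against 8.23% of all genes, and log2(FPKM + 1) gave none, against 6.18%. The 30 genes had a median log2 fold change of -0.08, with 11 above 0 and 19 below 0, and all genes tested had one of -0.01. The values of the groups did not overlap in 14 of 30, with erianin higher in 6 (TGFB1, SMAD3, LOXL2, TIMP1, PLAU and PLAUR) and lower in 8 (TGFB2, TGFBR1, VIM, CDH2, ZEB2, SNAI2, THBS1 and TIMP2). The fold changes of SMAD3 and LOXL2 were below 0 when library totals alone set the scale. With the GC and length trends described below removed, that of VIM was above 0 and those of LOXL2 and TIMP1 were below 0. Over all genes such separation was found in 46.1%, with erianin higher in 21.7% and lower in 24.4%, so the share among these genes lies near the background.

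Leaving out erianin replicate 1 changed this count. With erianin replicate 2 alone against DMSO, TGFB1 and TIMP1 were called higher, and TGFB2, SMAD2, SMAD4, CDH2 and THBS1 were called lower. In that fit 17.5% of all genes were called, and the lone erianin library is assumed to vary like the DMSO libraries. Leaving out any other library left 0 calls among these genes, where 0.132% of all genes were called without erianin replicate 2, 0.345% without DMSO replicate 1 and 0.404% without DMSO replicate 2.

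**Figure D2:**
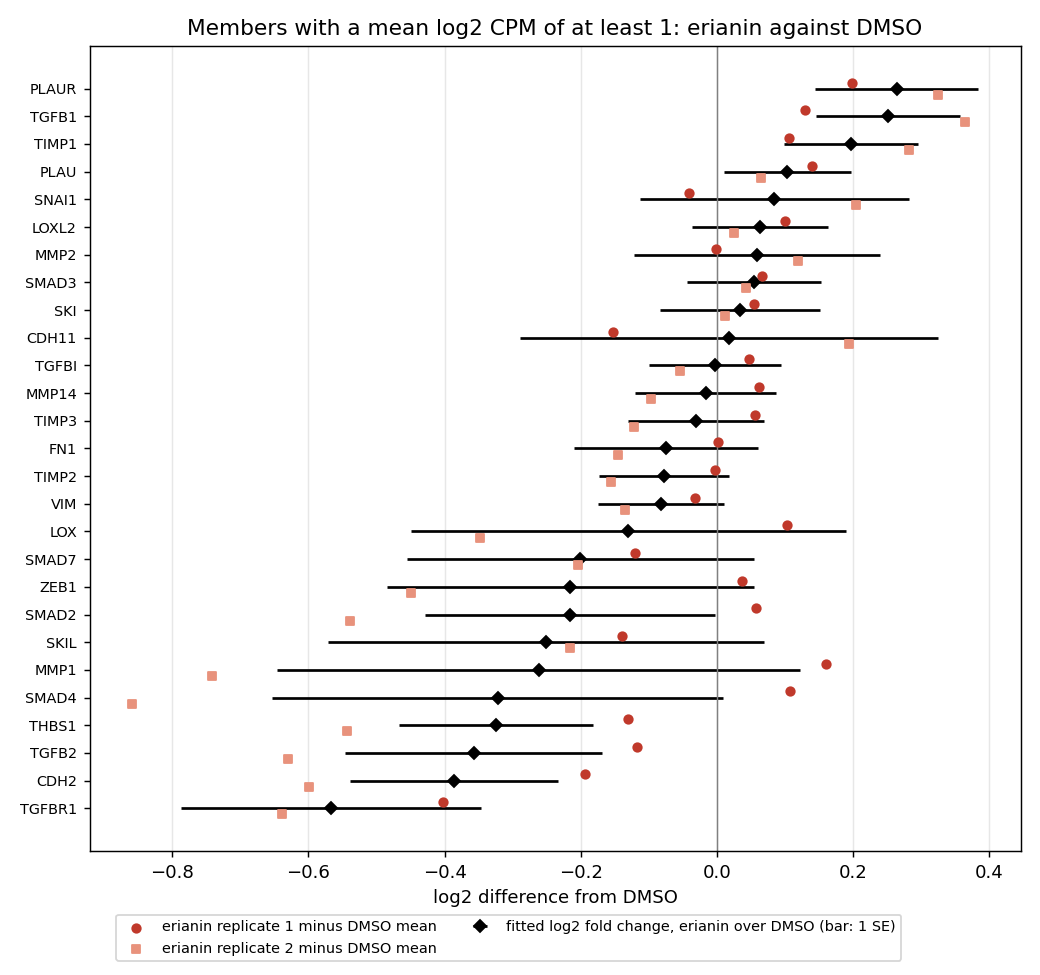
Erianin against DMSO for the 27 genes whose log2 CPM averaged 1 or more, on a log2 axis. Black diamonds are fitted fold changes with a bar of 1 standard error, and red points are each erianin library less the DMSO mean, on log2 (CPM + 0.5). Among the genes at the low end, from THBS1 down to TGFBR1, erianin replicate 2 lies further below 0 than erianin replicate 1.

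The ligands pointed opposite ways. TGFB1, the main ligand in carcinomas, had 438 and 516 CPM in erianin, against 399 and 403 CPM in DMSO. Both erianin libraries lay above both DMSO libraries, and the log2 fold change was 0.25 ± 0.11 (SE, adjusted p = 0.575), or 0.13 without erianin replicate 2. TGFB2, a second ligand, had 25.3 and 17.5 CPM in erianin, against 27 and 27.9 CPM in DMSO. Here both erianin libraries lay below DMSO, replicate 2 further than replicate 1, with a log2 fold change of -0.36 ± 0.19 (SE, adjusted p = 0.576), or -0.12 without erianin replicate 2. Per length TGFB1 was by far the more abundant ligand. The ratio of TGFB1 to TGFB2 FPKM was 36.8 and 61.4 in erianin and 31.3 and 30.6 in DMSO.

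Both receptors were scarce. TGFBR1, the type I receptor kinase, had 4.71 and 3.92 CPM in erianin, against 6.8 and 5.99 CPM in DMSO. The groups did not overlap, and its log2 fold change of -0.57 ± 0.22 (SE, adjusted p = 0.575) was the furthest from 0 among those whose log2 CPM averaged 1 or more. It remained between -0.72 and -0.44 when each library was left out in turn. It was -0.26 ± 0.18 (SE) with the GC and length trends described below removed. TGFBR2, which binds the ligand, was lower still at 0.16 and 0.11 FPKM in erianin and 0.15 and 0.07 FPKM in DMSO, from 27 to 54 counts per library. At this depth its log2 fold change of 0.34 ± 0.55 (SE) does not separate the groups, whose values overlapped.

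Among the signal transducers, SMAD3 stood well above the others at 13.4 and 12.2 FPKM in erianin and 12.1 and 12.8 FPKM in DMSO. In CPM it was nearly level, at 84.4 and 83 in erianin against 78.6 and 82.7 in DMSO (log2 fold change 0.05 ± 0.10, SE, adjusted p = 0.858). SMAD2, its partner, had 16.6 and 10.8 CPM in erianin, against 16 and 15.8 CPM in DMSO. SMAD4, the shared subunit, had 7.05 and 3.37 CPM in erianin, against 6.14 and 6.91 CPM in DMSO. For SMAD2 and SMAD4 erianin replicate 1 lay above both DMSO libraries and erianin replicate 2 below them. The log2 fold changes of -0.22 ± 0.21 and -0.32 ± 0.33 (SE, adjusted p = 0.716 and 0.731) became 0.06 and 0.11 without erianin replicate 2.

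Values of the pathway's inhibitors overlapped between groups for SMAD7, SKIL and SKI. SMAD7, the inhibitory SMAD and itself a known target of the pathway, had 4.3 and 4.03 CPM in erianin, against 3.94 and 5.64 CPM in DMSO. Its erianin values lay between those of the DMSO libraries (log2 fold change -0.20 ± 0.26, SE, adjusted p = 0.780). SKIL, a corepressor and likewise a known target, had 2.78 and 2.61 CPM in erianin, against 2.36 and 4.05 CPM in DMSO. SKIL too lay between the DMSO libraries, at a log2 fold change of -0.25 ± 0.32 (SE, adjusted p = 0.782). SKI, the related corepressor, had 42.5 and 41.2 CPM in erianin and 41.7 and 40.1 CPM in DMSO, with a log2 fold change of 0.03 ± 0.12 (SE, adjusted p = 0.933).

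Mesenchymal structural genes were led by VIM, the intermediate filament vimentin, which had 864 and 702 FPKM in erianin, against 908 and 893 FPKM in DMSO. In CPM it had 1863 and 1735 in erianin, against 1912 and 1897 in DMSO. Both erianin values were lower, by a small margin (log2 fold change -0.08 ± 0.09, SE, adjusted p = 0.754). CDH2, the adhesion molecule N-cadherin, had 46.5 and 35 CPM in erianin, against 53.8 and 52.8 CPM in DMSO. The groups did not overlap, and the log2 fold change was -0.39 ± 0.15 (SE, adjusted p = 0.575), from -0.62 without erianin replicate 1 to -0.19 without erianin replicate 2. FN1, the matrix glycoprotein fibronectin, overlapped between groups at 42.6 and 38.4 CPM in erianin and 39.3 and 46 CPM in DMSO (log2 fold change -0.07 ± 0.13, SE, adjusted p = 0.856). CDH11, a cadherin of mesenchymal cells, was under 1 FPKM in every library.

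Of the EMT transcription factors, SNAI1 was the most abundant, at 4.08 and 4.4 FPKM in erianin and 4.74 and 3.85 FPKM in DMSO. The SNAI1 groups overlapped, and the log2 fold change was 0.08 ± 0.20 (SE, adjusted p = 0.896). ZEB1 had 5.24 and 3.6 CPM in erianin, against 5.8 and 4.47 CPM in DMSO, with overlapping groups and a log2 fold change of -0.22 ± 0.27 (SE, adjusted p = 0.777). ZEB2 had 11 and 18 counts in erianin, against 28 and 50 counts in DMSO, and TWIST1 had 0 and 8 counts in erianin, against 3 and 0 in DMSO. SNAI2 had 29 and 27 counts in erianin, against 108 and 33 counts in DMSO. ZEB2 and SNAI2 had the lowest fitted log2 fold changes, -1.30 ± 0.74 and -1.20 ± 0.63 (SE), on few counts (adjusted p = 0.582 and 0.576). For SNAI2 DMSO replicate 1 stood apart from the other 3 libraries, and without it the log2 fold change was -0.17.

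SNAI2 was highest in DMSO replicate 1, and most fibroblast markers were highest there too. This joint rise was seen in that library only. Of 9 such markers, 5 were above 0 in erianin replicate 1, 6 in erianin replicate 2, 9 in DMSO replicate 1 and 8 in DMSO replicate 2. Summed over the list they had 11.4 and 14.4 CPM in erianin, against 39.9 and 13.7 CPM in DMSO. The collagen COL3A1 had 0 and 0.216 CPM in erianin, against 8.83 and 0.353 CPM in DMSO. DCN, the proteoglycan decorin, was at 0 in both erianin libraries and had 6.03 and 0.128 CPM in DMSO. PDGFRB was nearly even over the 4 libraries, from 4.57 to 5.42 CPM. The metalloproteinase gene MMP7 was likewise highest in DMSO replicate 1, with 0 and 7 counts in erianin, against 35 and 8 counts in DMSO. The part of other cells in the SNAI2 and MMP7 values was not tested, and fewer cells of a type cannot be told apart from less RNA per cell.

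**Figure D3:**
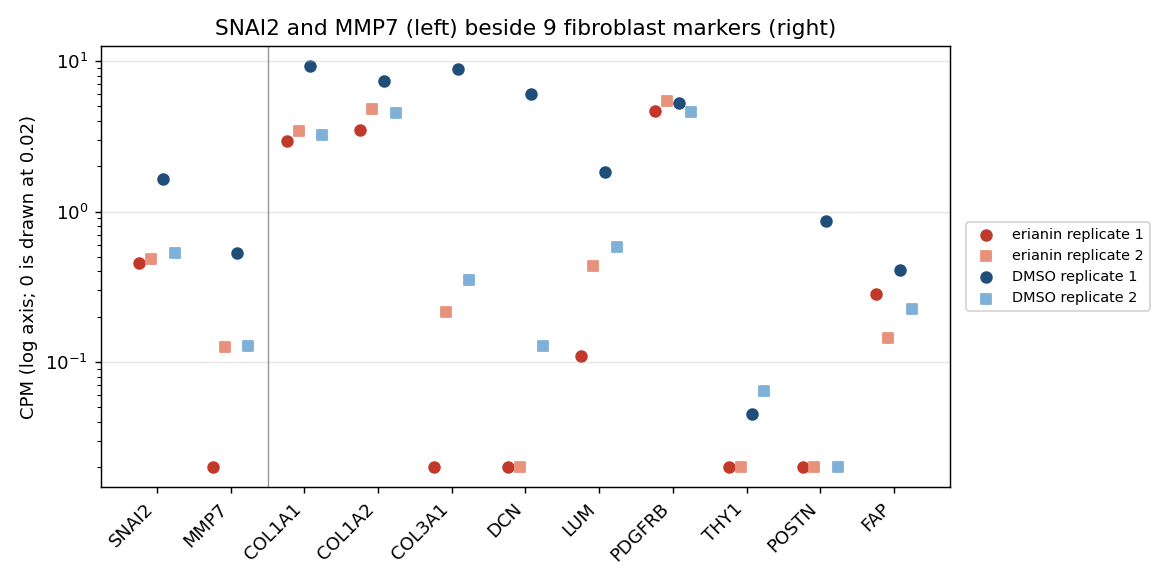
CPM on a log axis of SNAI2 and MMP7, left of the line, and of 9 fibroblast markers, right of it, with 1 point per library. DMSO replicate 1 is the highest point for SNAI2, MMP7, COL1A1, COL1A2, COL3A1, DCN, LUM, POSTN and FAP, but not for PDGFRB or THY1.

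Matrix and crosslinking genes were abundant apart from LOX. TGFBI, an adhesion protein induced by TGF-beta, had 103 and 95.5 CPM in erianin, against 97.5 and 101 CPM in DMSO, a log2 fold change of -0.0026 ± 0.10 (SE, adjusted p = 0.995). THBS1, thrombospondin 1, which can activate latent TGF-beta, had 113 and 84.8 CPM in erianin, against 118 and 130 CPM in DMSO. Both erianin values lay below DMSO, replicate 2 much further than replicate 1, at a log2 fold change of -0.32 ± 0.14 (SE, adjusted p = 0.575). Leaving out erianin replicate 2 brought it to -0.13. LOXL2, a lysyl oxidase that crosslinks collagen, had 82.7 and 78.4 CPM in erianin, against 76.9 and 77.3 CPM in DMSO (log2 fold change 0.06 ± 0.10, SE, adjusted p = 0.830). LOX, its relative, was between 0.32 and 0.49 FPKM in the 4 libraries, with a log2 fold change of -0.13 ± 0.32 (SE, adjusted p = 0.902).

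Of the 6 listed matrix metalloproteinase genes with rows, MMP14 carried most of the level. This membrane-bound collagenase, which activates MMP2, had 40.2 and 32.4 FPKM in erianin and 37 and 40.8 FPKM in DMSO. It made up 91.8% and 92.1% of the summed FPKM of these 6 genes in erianin and 91% and 91.6% in DMSO. The sum leaves out metalloproteinase genes outside the 35. Of these MMP15 had 18.64 and 18.25 FPKM in erianin and 19.27 and 18.15 FPKM in DMSO, and MMP24 is given below. In CPM MMP14 had 166 and 149 in erianin, against 152 and 167 in DMSO. The groups overlapped (log2 fold change -0.02 ± 0.10, SE, adjusted p = 0.966). MMP2, a gelatinase, had 8.64 and 9.43 CPM in erianin, against 8 and 9.34 CPM in DMSO (log2 fold change 0.06 ± 0.18, SE, adjusted p = 0.925). MMP1, interstitial collagenase, had 199 and 80 counts in erianin, against 177 and 175 counts in DMSO. Erianin replicate 2 alone was low, and the log2 fold change of -0.26 ± 0.38 (SE, adjusted p = 0.814) became 0.19 without it.

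The remaining metalloproteinase genes on the list were close to none. MMP9, the other gelatinase, had 9 and 5 counts in erianin and 0 in both DMSO libraries. MMP13 had 0 counts in both erianin libraries and 4 and 0 in DMSO. A count of 0 allows up to 0.0471 and 0.054 CPM in the erianin libraries and up to 0.0455 and 0.0481 CPM in the DMSO libraries (3 counts per library, counting error only). MMP1, MMP7, MMP10 and MMP13 lie in a cluster on chromosome 11, from 102520508 to 102955734 in GRCh38. These counts were too low for the test, which left MMP7, MMP9, MMP13 and TWIST1 out.

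The listed inhibitors outweighed the listed metalloproteinases per length. The summed FPKM of TIMP1, TIMP2 and TIMP3 was 1002 and 983 in erianin and 961 and 949 in DMSO. That of the 6 listed metalloproteinase genes with rows was 43.7 and 35.2 in erianin and 40.7 and 44.5 in DMSO. TIMP1, a secreted metalloproteinase inhibitor, had 747 and 844 CPM in erianin, against 696 and 693 CPM in DMSO. Both erianin values were above DMSO, at a log2 fold change of 0.20 ± 0.10 (SE, adjusted p = 0.575), or 0.11 without erianin replicate 2. TIMP2, which with MMP14 takes part in activating MMP2, had 232.63 and 209.36 CPM in erianin, against 232.65 and 233.73 CPM in DMSO (log2 fold change -0.08 ± 0.10, SE, adjusted p = 0.773). Erianin replicate 1 and DMSO replicate 1 were thus almost equal, and without erianin replicate 2 the log2 fold change was -0.0019. TIMP3, an inhibitor bound to matrix, overlapped at 590 and 522 CPM in erianin and 580 and 556 CPM in DMSO (log2 fold change -0.03 ± 0.10, SE, adjusted p = 0.928).

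The urokinase pair lay above DMSO in both erianin libraries in CPM, but not PLAU in FPKM. PLAU, the serine protease urokinase that activates plasminogen, had 128 and 121 CPM in erianin, against 116 and 116 CPM in DMSO, a log2 fold change of 0.10 ± 0.09 (SE, adjusted p = 0.691). In FPKM it overlapped, at 47.4 and 41.2 in erianin and 44.2 and 43.6 in DMSO. Its log2 fold change was 0.0063 with library totals alone, 0.0094 on log2(FPKM + 1) and 0.015 with the GC and length trends removed. PLAUR, its receptor at the cell surface, had 49.9 and 54.5 CPM in erianin, against 41.9 and 45.1 CPM in DMSO. Its log2 fold change of 0.26 ± 0.12 (SE, adjusted p = 0.575) ranged from 0.20 to 0.32 when each library was left out in turn.

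Promoter sequence is shown for TGFB1, TIMP1 and PLAUR as examples of abundant genes whose groups did not overlap, each with erianin higher. Others, such as VIM and THBS1 with erianin lower, are not shown. Sequence is also shown for MMP7, which had few counts, and for MMP10 of the same cluster, which has no measured level. Each is the 250 bases before the RefSeq start (GRCh38.p14), 5′ to 3′ on the gene's strand. Capitals mark a match to TGANTCA, the motif of AP-1, the dimer of FOS and JUN proteins that is known to drive matrix metalloproteinase genes. Only this motif is marked, so variants of it stay in lower case, such as TGAGTAA in the TIMP1 window. Matches to the other motifs counted below also stay in lower case, such as CAGACA in the MMP7 window. The regions are chr19:41353923-41354172 (minus) for TGFB1, chrX:47582186-47582435 (plus) for TIMP1, chr19:43670170-43670419 (minus) for PLAUR, chr11:102530748-102530997 (minus) for MMP7 and chr11:102780629-102780878 (minus) for MMP10.
TGFB1: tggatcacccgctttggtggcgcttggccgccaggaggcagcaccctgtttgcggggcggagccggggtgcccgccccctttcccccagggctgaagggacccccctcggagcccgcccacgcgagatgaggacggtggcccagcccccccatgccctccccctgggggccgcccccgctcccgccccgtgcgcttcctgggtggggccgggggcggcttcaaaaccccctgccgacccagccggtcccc
TIMP1: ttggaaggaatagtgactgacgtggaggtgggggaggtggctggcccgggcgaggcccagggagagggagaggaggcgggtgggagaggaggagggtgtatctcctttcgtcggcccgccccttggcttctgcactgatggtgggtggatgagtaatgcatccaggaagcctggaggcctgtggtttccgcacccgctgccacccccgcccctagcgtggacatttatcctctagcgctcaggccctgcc
PLAUR: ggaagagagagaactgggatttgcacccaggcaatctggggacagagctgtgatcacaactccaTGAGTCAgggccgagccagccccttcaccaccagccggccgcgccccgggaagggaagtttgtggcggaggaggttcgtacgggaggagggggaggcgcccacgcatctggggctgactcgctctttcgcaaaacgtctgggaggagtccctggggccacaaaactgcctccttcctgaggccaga
MMP7: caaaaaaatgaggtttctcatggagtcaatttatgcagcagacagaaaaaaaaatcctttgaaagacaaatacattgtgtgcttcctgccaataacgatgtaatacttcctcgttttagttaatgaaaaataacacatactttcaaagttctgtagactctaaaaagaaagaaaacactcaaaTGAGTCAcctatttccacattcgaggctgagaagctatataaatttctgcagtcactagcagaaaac
MMP10: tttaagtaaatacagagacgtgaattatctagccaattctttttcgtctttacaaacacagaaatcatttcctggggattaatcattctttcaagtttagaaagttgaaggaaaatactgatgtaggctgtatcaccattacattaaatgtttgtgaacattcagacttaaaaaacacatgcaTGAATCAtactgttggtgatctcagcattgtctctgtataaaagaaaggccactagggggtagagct

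The match begins 67 bases before the start in both MMP7 and MMP10 and 186 bases before it in PLAUR. GC content of these windows was 76.8% for TGFB1, 64.8% for TIMP1 and 63.2% for PLAUR, 33.6% for MMP7 and 34.4% for MMP10. This order does not hold for other genes, whose 300 base windows had 48% for VIM and 55% for MMP14, both abundant, and 79% for SKIL, which was under 1 FPKM. RefSeq promoters, of 250 bases before and 50 after a start, were given for 24 of the 35 genes, 49 windows in all since some genes have several starts. On either strand TGANTCA was in 6 of the 49, or 12.2%, against 7.71% of 35116 windows over all genes. CAGACA, which contains the SMAD-binding CAGAC, was in 9 of 49 against 16.9% of all windows. CACCTG, an E-box bound by SNAI and ZEB factors, was in 10 of 49 against 20.6%. A match is a run of letters and not a measured site.

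Fold changes of these genes followed the GC content of their transcripts. Among the 19 whose log2 CPM averaged 3 or more, the Spearman correlation of log2 fold change with GC content of the longest transcript was 0.763 across genes, which share the same 4 libraries. It was 0.665 across all 7959 genes at that level. Over all of them the slope per 10 percentage points of GC was 0.09 for erianin replicate 1 against the DMSO mean and 0.28 for erianin replicate 2. For DMSO replicate 1 against DMSO replicate 2 the slope was -0.043. TGFB1, at 63.5% GC, had its log2 fold change of 0.25 beside a median of 0.18 for genes within 1 percentage point of its GC. TGFB2, at 38.9% GC, had -0.36 beside -0.29. PLAUR, at 55.7% GC, had 0.26 beside 0.12, and TIMP1, at 57.9%, had 0.20 beside 0.14. CDH2, at 45% GC, had -0.39 beside -0.17, and THBS1, at 45.6%, had -0.32 beside -0.16.

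With the trends of each library over GC content and transcript length taken out, 0 of the 30 had an unadjusted p under 0.05, against 6.48% of all genes. The log2 fold change was then 0.07 for TGFB1, -0.10 for TGFB2, -0.01 for TIMP1, 0.11 for PLAUR, -0.20 for CDH2 and -0.09 for THBS1. For 14 of the 30 genes it was smaller in size by over 1.5 times, as for 42.9% of all genes. FN1, at 42.2% GC, was at 0.25 in place of -0.07, and SMAD2, at 40.2%, at 0.15 in place of -0.22. The SMAD2 value rests on an annotated transcript of 34526 nucleotides, by far the longest among these genes. Whether the GC trend comes from the compound or from single libraries was not tested.

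**Figure D4:**
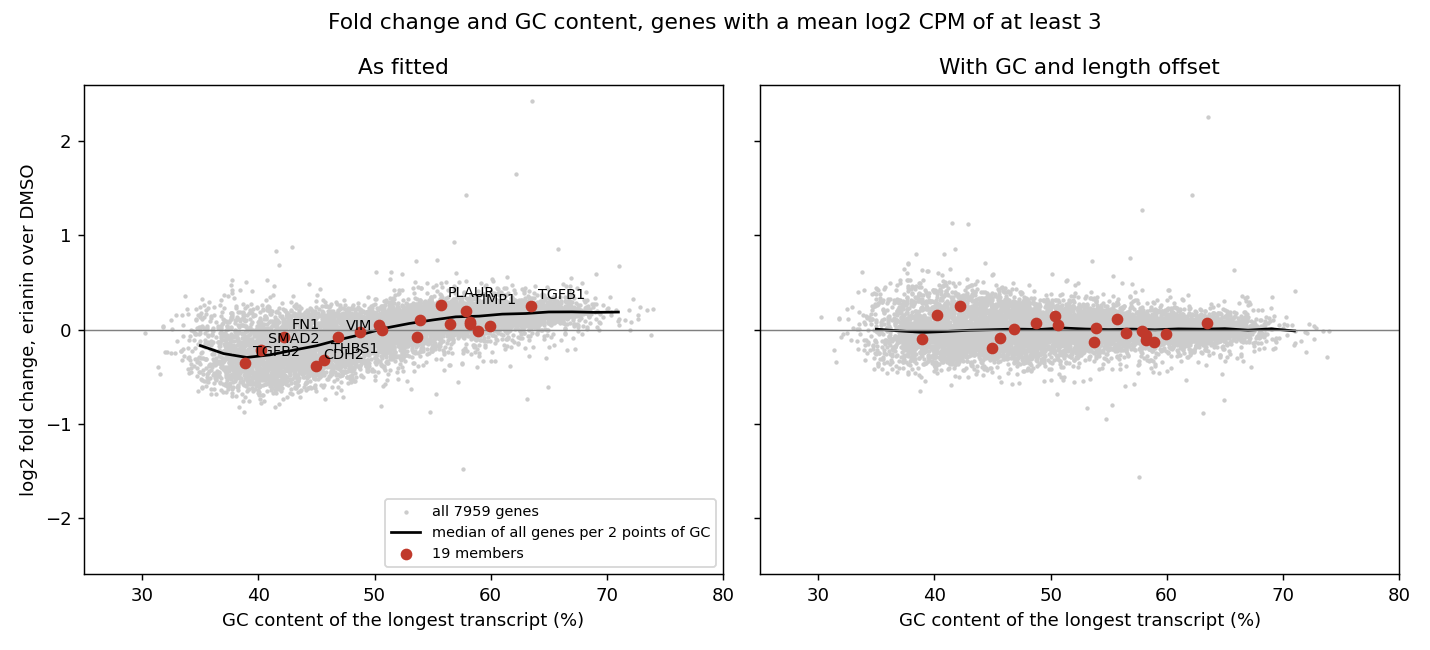
Log2 fold change of erianin over DMSO against GC content of the longest transcript, for 19 of the genes (red) and all 7959 genes at a mean log2 CPM of 3 or more (grey), as fitted (left) and after removal of the GC and length trends (right). The black line is the median of all genes, and the red points follow it on the left and lie on both sides of 0 on the right.

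The division of counts between the rows of a gene was unstable, so rows were not read as transcripts. Of 27 genes with several rows, 11 had a largest row whose share of the gene's counts ranged over more than 25 percentage points between libraries, and 7 had one above 95% throughout. For ZEB1 the largest row held 0% and 100% of the counts in erianin and 100% and 2.51% in DMSO, while the summed counts were 334 and 200 in erianin and 383 and 279 in DMSO. For TGFBR1 the largest row held 32.3% and 10.1% in erianin, against 83.3% and 93% in DMSO. The shares of TGFBR1 thus did not overlap between groups, unlike those of ZEB1, and this difference was not tested. VIM had 103620 and 66261 counts in its largest row in erianin, against 113458 and 105252 in DMSO. Its second row had 14160 and 29346 counts in erianin, against 11786 and 12379 in DMSO, so the lower count in the largest row of erianin replicate 2 stood beside a higher one in the second. FPKM depends on this division too. SMAD2 had 16 and 15.8 CPM in the DMSO libraries but 1.81 and 0.99 FPKM there.

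**Figure D5:**
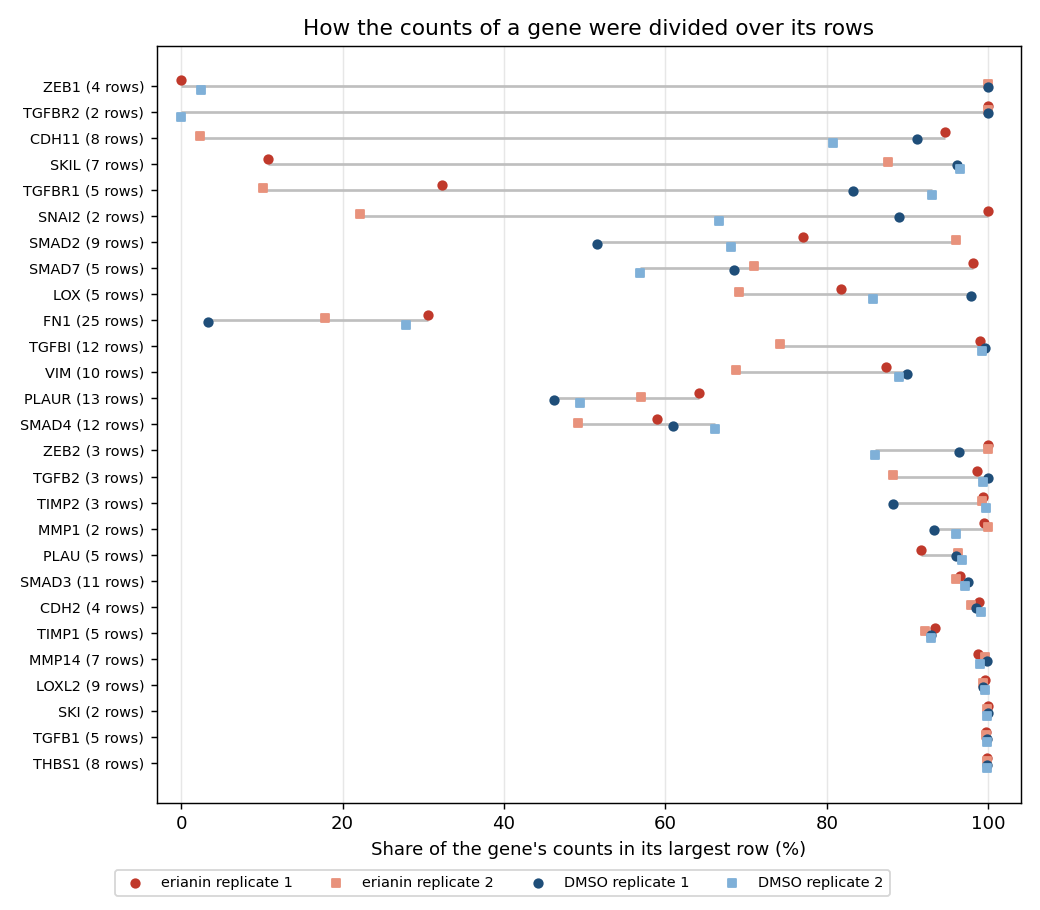
Share of a gene's counts in its largest row, in percent, for the 27 genes with several rows, with 1 point per library and a grey line over their range. ZEB1, TGFBR2, CDH11 and SKIL span most of the axis, whereas THBS1, TGFB1, SKI and LOXL2 stay near 100%.

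Some values are uncertain as single genes, because the strandedness of the counting is not given in the sources used here. In GENCODE release 29 on GRCh38, 12 of the 35 genes overlap another gene on the same strand and 21 overlap one on the opposite strand. Such partners are TMEM91, HNRNPUL1 and CCDC97 for TGFB1, SYN1 for TIMP1, SYN3 for TIMP3, VIM-AS1 for VIM and ZEB1-AS1 for ZEB1. Long stretches are shared with an annotated neighbour or copy by 7 genes, such as TGFB2 with TGFB2-OT1 and PLAU with C10orf55 (at least 200 nucleotides at 95% identity). TGFBR1, THBS1, CDH2 and MMP1 also overlap a gene on one strand or the other, whereas SKI, SKIL, SMAD7, FN1, SNAI1, TGFBI and MMP14 overlap none.

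Wider lists of the same biology gave the same count of 0 with edgeR. Of 31 further TGF-beta pathway genes tested, 0 passed, with 0 higher and 4 lower at an unadjusted p under 0.05 and a median log2 fold change of -0.13, beside 2.21% higher and 5.89% lower of all genes at that p. DESeq2 called 1 of these 31 and limma-voom 0, against 21 and 0 of all 17090 genes. ITGAV, an integrin subunit that releases latent TGF-beta, had 34.9 and 28.9 CPM in erianin, against 50.5 and 49.1 CPM in DMSO, a log2 fold change of -0.64 ± 0.14 (SE, adjusted p = 0.575). TRIM33, a ubiquitin ligase that binds SMAD proteins, was at -0.70 ± 0.22, BMPR1A, a BMP receptor, at -0.58 ± 0.22, and ACVR1, a type I receptor, at -0.50 ± 0.21 (log2 fold changes, SE). These 4 have GC contents from 38.3% to 44.6%. Their log2 fold changes were -0.34, -0.38, -0.22 and -0.34 with the GC and length trends removed.

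Known TGF-beta target genes, 20 tested, had 0 calls and a median log2 fold change of 0.08. Of them 1 gene had an unadjusted p under 0.05, or 5%, against 8.1% of all genes. That gene, ANGPTL4, an angiopoietin-like inhibitor of lipoprotein lipase, had 55 and 55.4 CPM in erianin, against 43.7 and 39.7 CPM in DMSO (log2 fold change 0.41 ± 0.12, SE, adjusted p = 0.575). TGM2, transglutaminase 2, reached 404 and 400 FPKM in erianin and 366 and 390 FPKM in DMSO, with a log2 fold change of 0.19 ± 0.10 (SE). TPM1, a tropomyosin, and JUNB, an AP-1 subunit, had log2 fold changes of -0.22 ± 0.10 and 0.19 ± 0.13 (SE). With the GC and length trends removed the values were 0.20 for ANGPTL4, 0.15 for TGM2, -0.052 for TPM1 and -0.011 for JUNB. The last of these changed sign.

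Further matrix proteases and inhibitors, 24 tested, had 0 calls, with 2 higher and 2 lower at an unadjusted p under 0.05, a level reached by 8.1% of all genes, and a median of 0.08. The sheddases ADAM9 and ADAM10 were at -0.52 ± 0.15 and -0.59 ± 0.24 (SE). Without erianin replicate 1 they were at -0.79 and -1.05, and without erianin replicate 2 at -0.30 and -0.25. With the GC and length trends removed they were at -0.29 and -0.28. ADAM9 had 123 and 88.4 CPM in erianin, against 159 and 145 CPM in DMSO. MMP24, a membrane metalloproteinase, and ADAM8 were at 0.39 ± 0.13 and 0.39 ± 0.17 (SE). Removal of the GC and length trends brought MMP24 to 0.28 and ADAM8 to 0.23. MMP24 had 10.8 and 11.6 FPKM in erianin, against 8.66 and 9.69 FPKM in DMSO.

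Further mesenchymal and crosslinking genes, 13 tested, had 0 calls and a median of -0.0026. LOXL1, a collagen crosslinking enzyme at 67.6% GC, was at 0.26 ± 0.11 (log2 fold change, SE). It was at 0.08 with the GC and length trends removed. ITGA5, the fibronectin receptor subunit, NT5E, the surface enzyme CD73, and S100A4, a calcium-binding protein, had log2 fold changes of 0.23 ± 0.11, -0.21 ± 0.13 and 0.14 ± 0.10 (SE). Those were 0.20 for ITGA5, -0.031 for NT5E and -0.052 for S100A4 without the GC and length trends, so that S100A4 changed sign. Without erianin replicate 2, NT5E was at -0.071 and S100A4 at 0.059. Epithelial genes, 10 tested, also had 0 calls, and their median was 0.15. KRT19, a ductal keratin, had 1580 and 1754 CPM in erianin, against 1380 and 1445 CPM in DMSO, a log2 fold change of 0.24 ± 0.10 (SE), and TJP1, a tight junction scaffold, had one of -0.52 ± 0.15 (SE). Removal of the GC and length trends brought KRT19 to 0.02 and TJP1 to -0.25. It brought the medians of the lists to 0.046 for the further pathway genes, -0.021 for the targets and 0.042 for the further proteases and inhibitors. Those of the further mesenchymal genes and of the epithelial genes became 0.0024 and 0.0095.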

How the data were processed

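The submitters' processing notes name featureCounts 2.0.1, StringTie 2.2.1, STAR, fastp and the build GRCh38, without their order; how transcripts were annotated was not stated. The authors deposited estimated counts, whole numbers in 107429 rows for 25798 gene IDs, from alignments to GRCh38 per the submitters' processing notes. As 14076 IDs had several rows, rows were summed per ID before the count test, where the plan had assumed 1 row of counts per gene. Values of the second deposited table are FPKM, per the file headers, summed likewise and used for levels. Groups and replicate numbers come from the sample titles. A table of gene names supplied symbols, and GENCODE release 29 the positions, and the longest transcript's GC content and length.

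All genes were fitted with edgeR 4.0.16 in R 4.3.3: TMM factors, filterByExpr with a minimum count of 10 (17090 genes kept), quasi-likelihood F test, 2 residual degrees of freedom, Benjamini-Hochberg adjustment and a threshold of 0.05. Standard errors are the log2 fold change over the square root of F. Alternatives were other factors and filters, DESeq2 1.42.0, limma 3.58.1 (voom, and log2 FPKM with pseudocounts of 1 and 0.1), each library left out, the replicate block, and an offset for GC content and length (natural splines with 5 df, fitted where log2 CPM averaged 3 or more). Near copies were found with BLAST+ 2.17.0.

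The 35 genes and all lists were chosen with earlier results of these data known. Full statistics were given, per role, to up to 3 members with the smallest p and a log2 CPM averaging 1 or more, and to the member with the highest FPKM, and from the 5 other lists up to 4 genes by the same p were named. Further low genes, and MMP15, were named with their values already known. The depth, from 59923935 to 63336545 counts per library, limits genes with few counts. Floors given for genes without counts cover counting error only, whereas the standard errors also take in the fitted spread between libraries.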

Additional observations from a re-analysis of the deposited data

How the results depend on the processing

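Over 16 alternatives, 416 fold changes of the 26 genes with full statistics were recomputed, of which 349 kept their direction and stayed short of the threshold, 60 changed direction and 7 passed it. The 7 came without erianin replicate 1, at 0.35 for TGFB1, 0.27 for TIMP1, -0.65 for TGFB2, -0.57 for SMAD2, -0.96 for SMAD4, -0.62 for CDH2 and -0.56 for THBS1; the cause was not tested. Without erianin replicate 2 they were at 0.13, 0.11, -0.12, 0.061, 0.11, -0.19 and -0.13, in the same order. Leaving out 1 library at a time, calls among the members ranged from 0 to 2 higher and from 0 to 5 lower, their median from -0.15 to 0.040, and calls over all genes from 24 to 3166, with 9 to 1322 higher and 15 to 1844 lower. The 7 calls over all genes, 2 higher and 5 lower, became 2 (0 and 2) with library totals alone and with either FPKM pseudocount, 21 (12 and 9) with DESeq2 and 0 with limma-voom, where 1673 genes had an unadjusted p under 0.05. There were 4 higher with upper-quartile factors and 0 higher with the GC and length offset. With library totals alone the member median was -0.17, and that of all genes moved by -0.10.

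Replicate numbers are shared between groups in the titles, but nothing says that they mark shared cultures. The difference between replicates of erianin correlated with that of DMSO at 0.22 across 7977 genes. With the replicate block 334 genes passed, 66 higher and 268 lower, none of them a member, and no direction changed; with the block and the GC and length offset, 16 passed, 9 of them higher.

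Directions that changed belonged to fold changes of at most 0.32 in size, all on the log2 scale. With 1 library left out they ranged from -0.57 to 0.061 for SMAD2, -0.96 to 0.11 for SMAD4, -0.44 to 0.081 for SMAD7, -0.59 to 0.19 for SKIL, -0.18 to 0.042 for FN1, -0.52 to 0.031 for ZEB1, -0.054 to 0.24 for SNAI1, -0.064 to 0.049 for TGFBI, -0.45 to 0.12 for LOX, -0.94 to 0.19 for MMP1, -0.050 to 0.17 for MMP2, -0.11 to 0.063 for MMP14 and -0.13 to 0.057 for TIMP3. Library totals alone gave SMAD3 -0.044, SKI -0.064, SNAI1 -0.020, LOXL2 -0.034 and MMP2 -0.041, log2(FPKM + 1) gave SKI -0.055, SNAI1 -0.011, LOXL2 -0.033 and MMP2 -0.028, and log2(FPKM + 0.1) gave SKI -0.064, SNAI1 -0.012, LOXL2 -0.034 and MMP2 -0.038. TGFBI was at 0.013 with median-ratio factors and with DESeq2, 0.016 with upper-quartile factors and 0.003 with a CPM of at least 1, and MMP14 at 0.0014 with upper-quartile factors. The GC and length offset gave SMAD2 0.15, SKI -0.044, VIM 0.011, FN1 0.25, ZEB1 0.070, SNAI1 -0.11, TGFBI 0.050, LOX 0.13, LOXL2 -0.055, MMP2 -0.034, TIMP1 -0.014 and TIMP3 0.072. The replicate block added to it gave SMAD2 0.14, SKI -0.044, SKIL 0.037, VIM 0.011, FN1 0.26, ZEB1 0.071, SNAI1 -0.098, TGFBI 0.050, LOX 0.13, LOXL2 -0.057, MMP2 -0.032, TIMP1 -0.014 and TIMP3 0.072. TGFBR2, ZEB2, SNAI2, MMP7, MMP9, MMP13 and TWIST1 had few counts and are limited by depth.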
